A study of Mus musculus with 6 samples.

Results

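The genes described here are 10 mouse genes of the actin cytoskeleton, measured in cultured squamous cell carcinoma cells (SCCc). They are the cytoplasmic actins *Actb* and *Actg1*, the thymosins *Tmsb10* and *Tmsb4x*, and *Pfn1*, *Cfl1*, *Tpm1*, *Tpm4*, *Flna* and *Myh9*. They were chosen by name with the footprint counts, RNA-seq values and translational efficiencies of these same libraries already known, so their values are a description and no test was made. Each of the 10 had a row of its own among the 23698 gene rows, and no joined row held any of their names.

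The study asked how isoform switches in untranslated regions accompany translational efficiency in cancer cells of the skin. SCCc are keratinocytes taken from the back skin of P0 mice, which carry *Hras* G12V and a knockout of *Tgfbr2* made from the fl/fl allele, and were used at passages 10 to 15. The data analysed here were 1 library of ribosome footprints, the mRNA fragments that ribosomes shield from nuclease, and 2 RNA-seq replicates. Every library came from this 1 line, the labels do not say whether the RNA-seq replicates were separate cultures, a single footprint library was analysed here, and wild-type keratinocytes were not analysed here, so no value below is a change caused by either allele.

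Actin monomers join into filaments that shape the keratinocyte, anchor its cell-cell junctions and drive its movement over the matrix. Thymosins hold monomers in reserve, profilin feeds them to growing ends, and cofilin severs old filaments and returns monomers to the pool. Tropomyosins coat filaments, filamin links them into networks, and myosin II pulls on them.

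The exon counts came to 3549555 footprints, to 10707930 reads in the first RNA-seq replicate and to 14003713 in the second. Coding sequence (CDS) held 3198469 of the footprints. Levels between genes are given per length, as RPKM, which is the count divided by the counted length and by the exon count sum of the library. Translational efficiency divides the CDS density of footprints by the exon density of RNA-seq, averaged over its replicates, and is given as log2 relative to the median of the 9862 genes that passed the filters on low values. All 10 genes passed. The SD beside a translational efficiency is that between the values from the 2 RNA-seq replicates, and it holds no spread of the footprints, for which only a counting error is known. In some genes the SD is smaller than the counting error, and it is then no measure of precision. In bulk libraries such as these, the number of cells that use a gene and the amount of its mRNA per cell cannot be told apart.

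*Actb* and *Actg1* encode the beta and gamma cytoplasmic actins, which differ only in a few residues near the start of the protein. *Actb* lies on the minus strand at chr5:142903115-142906754 and *Actg1* on the minus strand at chr11:120345690-120348542 (GRCm38, GENCODE M21). The counted CDS was 1125 nt in each, the length of the whole CDS of the transcripts Actb-201 and Actg1-202. Counted regions were compared with the annotation by length only, here and below, since the sources used here do not name the annotation release behind these counts or the positions that were counted, and M21 need not be that release. The bases of these coding sequences were identical at 997 of 1125 positions (88.6%), with a longest identical run of 62 nt. The first 30 bases of each CDS are shown because this is where the proteins part, and capitals mark the 8 bases that differ. They lie in exons at chr5:142905657-142905686 and chr11:120348062-120348091.
Actb: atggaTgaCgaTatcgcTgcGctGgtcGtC
Actg1: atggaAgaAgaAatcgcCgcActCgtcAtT

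*Actb* had 42354 footprints on its CDS, more than any other row of the table. *Actg1* had 18537 and ranked 7 of 23698. Footprint density on the CDS was 10606 RPKM in *Actb* and 4642 RPKM in *Actg1*, a ratio of 2.28 (95% counting interval 2.25 to 2.32). RNA-seq on exons had the opposite order. *Actb* stood at 768 RPKM in replicate 1 and 867 RPKM in replicate 2, and *Actg1* at 1147 and 1222 RPKM. The *Actg1* level was thus 1.49 times that of *Actb* in replicate 1 and 1.41 times in replicate 2. Counted over the CDS alone, where the lengths are equal, the RNA-seq levels were closer, at 977 and 1121 RPKM for *Actb* and 1076 and 1189 RPKM for *Actg1*, and *Actg1* was 1.10 and 1.06 times *Actb*. The log2 translational efficiency was 3.36 ± 0.13 (SD, n = 2) in *Actb* and 1.63 ± 0.08 in *Actg1*. *Actb* exceeded *Actg1* by 1.69 with RNA-seq replicate 2 alone and by 1.77 with replicate 1 alone, a difference larger than the spread between the RNA-seq replicates in either gene. With RNA-seq over the CDS the values were closer, at 3.29 ± 0.13 in *Actb* and 1.99 ± 0.09 in *Actg1*. Neither SD holds the spread of the footprints.

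Reads from near-identical sequence can be split between genes by counting, and how reads with several matches were treated is not given in the sources used here, so the coding sequences were compared with the annotated transcripts of all other genes, in windows of 30 nt, a length chosen to be near that of a footprint, and of 50 nt. All 1096 windows of 30 nt in the *Actg1* CDS occurred in a transcript of another gene, led by the processed pseudogenes Gm12715 (1030 windows) and Gm8399 (835 windows). In *Actb* 503 of 1096 windows (45.9%) did, and 110 of these were shared with *Actg1*. With windows of 50 nt the share was 19.7% in *Actb* and still 100% in *Actg1*. The counts of both actins are therefore uncertain to an extent that these tables do not give. In the UTRs, 187 of 657 windows were shared in the 3′UTR of *Actb*, and none in its 5′UTR or in either UTR of *Actg1*.

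The muscle actins are paralogs of both genes. *Acta1*, the skeletal muscle actin at chr8:123891769-123894751, had 2432 footprints on its CDS, beside 5 RNA-seq counts on exons for replicate 1 and 4.97 for replicate 2. *Acta2*, the vascular smooth muscle actin, had 976 footprints beside 4 and 14.0 RNA-seq counts. *Actc1* and *Actg2*, the cardiac and enteric actins, had 8 and 12 footprints and no more than 1 RNA-seq count in either replicate. The number of 30 nt windows shared with *Actb* was 59 in *Acta1*, 18 in *Acta2*, 3 in *Actc1* and 0 in *Actg2*. With *Actg1* it was 31, 27, 0 and 0. The longest run shared by *Actb* and *Acta1* was 77 nt, bases 229 to 305 of the *Actb* CDS and 235 to 311 of the *Acta1* CDS, and its first 30 bases are shown as an example of a footprint-sized stretch that both genes hold.
Actb and Acta1: accaactgggacgacatggagaagatctgg

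*Acta1* and *Acta2*, with the most windows in common with the cytoplasmic actins, had the most footprints of the 4, and none of the 4 had more than 14.0 RNA-seq counts. Whether their footprints came from the cytoplasmic actins was not tested. None of the muscle actins passed the filters, and they enter no count below.

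*Tmsb10* and *Tmsb4x* encode short peptides that bind actin monomers. *Tmsb10* lies on the minus strand at chr6:72957347-72958748 and *Tmsb4x* on the minus strand at chrX:167207093-167209315. The counted CDS was 132 nt in each, as long as the CDS of the transcripts Tmsb10-201 and Tmsb4x-201. The paralogs were identical at 92 of 132 bases (69.7%), no identical run was longer than 10 nt, and they shared no window of 30 nt. The first 30 bases of each CDS, at chr6:72957983-72958012 and chrX:167208007-167208036, show how the differences are spread, with the 8 differing bases in capitals.
Tmsb10: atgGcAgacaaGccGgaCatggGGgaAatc
Tmsb4x: atgTcTgacaaAccCgaTatggCTgaGatc

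The thymosins had similar footprint densities and very different RNA-seq levels. *Tmsb10* had 2196 footprints on its CDS (4687 RPKM) and *Tmsb4x* had 1837 (3922 RPKM), a ratio of 1.20 (95% counting interval 1.12 to 1.27). On exons *Tmsb10* had 242 and 314 RNA-seq counts, or 23.9 and 23.8 RPKM. *Tmsb4x* had 6975 and 7802 counts, or 972 and 832 RPKM. The RNA-seq level of *Tmsb4x* was thus 40.6 times that of *Tmsb10* in replicate 1 and 35.0 times in replicate 2, and over the CDS alone 51.7 and 57.9 times. The log2 translational efficiency was 7.28 ± 0.003 (SD, n = 2) in *Tmsb10*, with a counting error of 0.069, and 1.78 ± 0.15 in *Tmsb4x*. With footprints counted over exons these values were 5.52 and 0.51, and without division by length 5.45 and 0.45. With RNA-seq over the CDS they were 7.23 ± 0.32 and 1.21 ± 0.20.

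The thymosins also differed in how much of their sequence was unique. All 103 windows of 30 nt in the *Tmsb10* CDS occurred in transcripts of 9 other genes, 7 of them annotated as pseudogenes, and none of the 9 had a row in the files. In its 3′UTR 87.0% of the windows were shared and in its 5′UTR 16.3%. In *Tmsb4x* no window of 30 nt was shared in the CDS or in either UTR. Of the RNA-seq counts of *Tmsb10*, 49 and 47.5 lay on the CDS and 163 and 224 on the 3′UTR in replicates 1 and 2. The part of shared sequence in the RNA-seq and footprint counts was not tested.

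*Pfn1* encodes profilin 1, which loads monomers onto growing filament ends, and lies on the minus strand at chr11:70651850-70654644. Its counted CDS of 420 nt was as long as the CDS of Pfn1-201 and held 2811 footprints (1886 RPKM). RNA-seq on exons was 322 and 377 RPKM, and the log2 translational efficiency was 2.09 ± 0.17 (SD, n = 2). Only 9 of its 391 CDS windows of 30 nt were shared with another gene. Its paralog *Pfn2* was close to silent, with 2 CDS footprints beside exon counts of 18 and 21 in RNA-seq.

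*Cfl1* encodes cofilin 1, which severs and depolymerises filaments, and lies on the plus strand at chr19:5490455-5495201. The counted CDS was only 202 nt long, 40.6% of the 498 nt of Cfl1-202, and these held 2701 footprints (3766 RPKM). RNA-seq on exons was 441 and 465 RPKM. The log2 translational efficiency was 2.71 ± 0.06 (SD, n = 2), below only *Tmsb10* and *Actb* among the 10 genes, and describes only that part of the CDS. Across the full CDS 69.3% of the 30 nt windows occurred in other transcripts, all from 7 pseudogenes without a row in the files. The related depolymerising factors *Cfl2* and *Dstn* had log2 translational efficiencies of 1.12 ± 0.06 and 1.03 ± 0.08, from 146 and 2882 CDS footprints. With RNA-seq over the CDS both were below 1, at 0.37 and 0.87.

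*Tpm1* and *Tpm4* encode tropomyosins, which lie along actin filaments and gate the access of myosin and cofilin. *Tpm1* lies on the minus strand at chr9:67022590-67049406 and *Tpm4* on the plus strand at chr8:72134975-72153142. The counted CDS of *Tpm1* was 1337 nt, 93.8% of the joint length of the CDS of its transcripts, and held 1732 footprints (365 RPKM). That of *Tpm4* was 459 nt, 61.7% of the 744 nt of Tpm4-201, and held 895 footprints (549 RPKM). RNA-seq on exons was 121 and 124 RPKM in *Tpm1* and 232 and 231 RPKM in *Tpm4*. The log2 translational efficiency was 1.23 ± 0.03 (SD, n = 2) in *Tpm1* and 0.90 ± 0.01 in *Tpm4*, with counting errors of 0.038 and 0.051.

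The order of these tropomyosins turned with the region over which RNA-seq was counted. With RNA-seq over the CDS, *Tpm1* was at 0.91 ± 0.03 and *Tpm4* at 1.80 ± 0.21. Of the *Tpm4* RNA-seq counts on CDS and UTRs, 79.6% and 74.2% lay in the 3′UTR in replicates 1 and 2, against 34.5% and 31.7% in *Tpm1*. *Tpm2* and *Tpm3*, the other tropomyosin genes, had higher values with RNA-seq on exons than either, 2.33 ± 0.04 and 2.32 ± 0.06, at footprint densities of 206 and 215 RPKM. Over the CDS they were at 1.10 and 3.63.

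*Flna* encodes filamin A, a long dimeric crosslinker of filaments, and lies on the minus strand at chrX:74223461-74249820. Its counted CDS of 5966 nt held 991 footprints, or 46.8 RPKM, the lowest footprint density of the 10 genes. RNA-seq on exons was 84.7 and 92.2 RPKM. The log2 translational efficiency was -1.26 ± 0.10 (SD, n = 2), the only value of the 10 below -1. A further 1975 exon positions of *Flna* were assigned to no region, and with them the length came to 7941 nt, the CDS length of Flna-201. These positions held 0.295 footprints per nt against 0.166 on the counted CDS, a ratio of 1.77, while RNA-seq counts were 0.802 and 0.791 times as dense there. With these positions added to the CDS the log2 translational efficiency was -1.01, an alternative chosen after the data were seen, and with footprints over exons it was -0.25. The paralog *Flnc* was at -0.30 ± 0.17, with 7.44 RPKM of footprints.

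*Myh9* encodes the heavy chain of non-muscle myosin IIA, the motor that contracts filament bundles, and lies on the minus strand at chr15:77760587-77842175. Its counted CDS of 5880 nt was as long as the CDS of Myh9-201 and held 3473 footprints (166 RPKM). RNA-seq on exons was 130 and 143 RPKM. The log2 translational efficiency was -0.055 ± 0.11 (SD, n = 2), nearer to the median of all genes than its SD. Of its 5851 windows of 30 nt, 130 were shared with another gene, 103 of them with *Myh10*. *Myh10* had only 8.85 footprints beside 8.36 and 18.0 RNA-seq counts, and *Myh14* was at -0.42 ± 0.02 with 68 footprints and a counting error of 0.19. At a similar counted length, *Myh9* had 3.55 times the footprint density of *Flna* (95% counting interval 3.31 to 3.81) and 1.53 and 1.55 times its RNA-seq level on exons. The footprint ratio leaves out the 1975 exon positions of *Flna* assigned to no region. Footprints there were 1.77 times as dense as on its counted CDS.

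**Figure D1:**
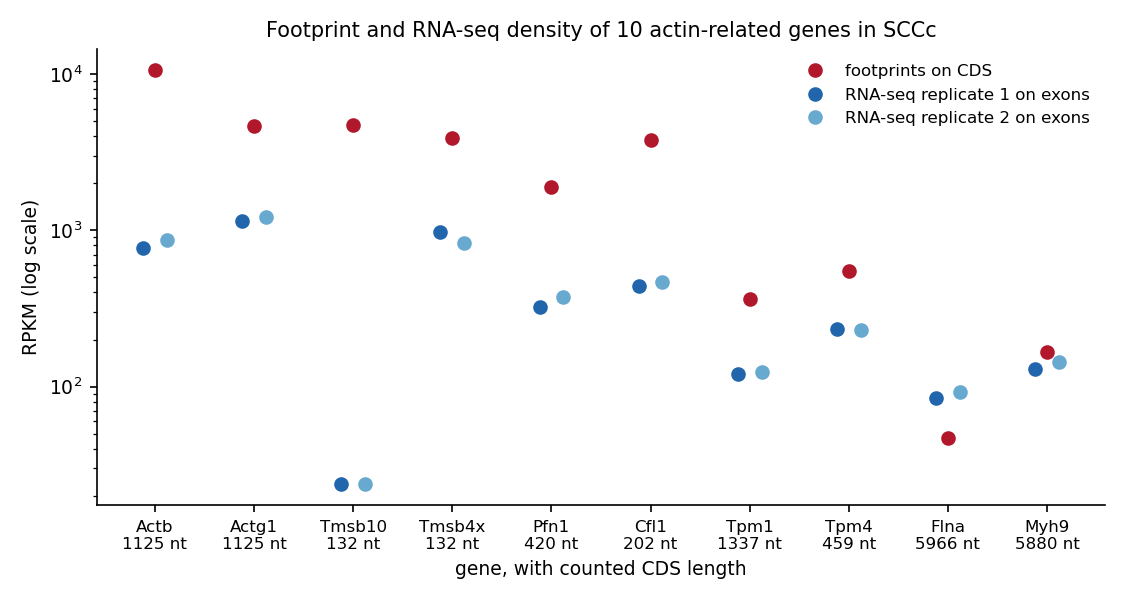
Density of footprints on the CDS (red) and of RNA-seq on exons in replicates 1 and 2 (dark and light blue) for the 10 genes, in RPKM on a log scale, with the counted CDS length in nt under each name. Footprint density ran from 46.8 RPKM in *Flna* to 10606 RPKM in *Actb*, and the RNA-seq points of *Tmsb10*, at 23.9 and 23.8 RPKM, were the lowest of the plot.

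Relative to the median of all genes, log2 translational efficiency was above 1 in 7 of the 10 genes and below -1 in 1, *Flna*. Over all genes that passed, 20.7% were above 1 and 21.1% below -1. Since translational efficiency was known when the genes were chosen, nothing is read from this count. The number above 1 was 5 with footprints over exons or without division by length, and 6 under a limit of 100 counts. The median of the 10 was 1.70, between the values of *Actg1* and *Tmsb4x*, and 1.77 with RNA-seq over the CDS. With RNA-seq over the CDS 7 were again above 1, beside 18.3% of all genes, and 1 below -1, beside 19.5%, but *Tpm4* had taken the place of *Tpm1*. The members held 2.42% of all footprints on CDS (95% Wilson interval 2.41 to 2.44), and *Actb* alone held 1.32% of all footprints on CDS. They held 0.719% of the RNA-seq exon counts in replicate 1 and 0.765% in replicate 2. These intervals cover counting error only, since copies of a read made by PCR are not independent molecules.

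Translational efficiency was lower at greater counted CDS length across all genes, so each member was set beside genes of similar counted length. The median was 1.80 in the 396 genes with up to 300 nt of counted CDS, 0.55 in 2935 genes up to 1000 nt, -0.17 in 5157 genes up to 3000 nt and -0.77 in 1374 genes above 3000 nt. *Tmsb4x* was at the median of its length class and *Cfl1* inside the quartiles of the same class, which were 0.89 and 3.11. *Tmsb10* was above these quartiles. *Cfl1* was in this class by the 202 nt that were counted, and at the 498 nt of Cfl1-202 its value would be above the upper quartile of the next class. *Pfn1* exceeded the upper quartile of its class, 1.33, and *Tpm4* did not. *Actb*, *Actg1* and *Tpm1* exceeded the upper quartile of theirs, 0.52. *Flna* was inside the quartiles of the longest class, -1.49 and -0.14, and *Myh9* was just above the upper of these. Of the 9862 genes, 8390 had a counted length of at least 80% of the joint CDS of their transcripts. A class of counted length can thus hold genes whose CDS is longer than the part counted.

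**Figure D2:**
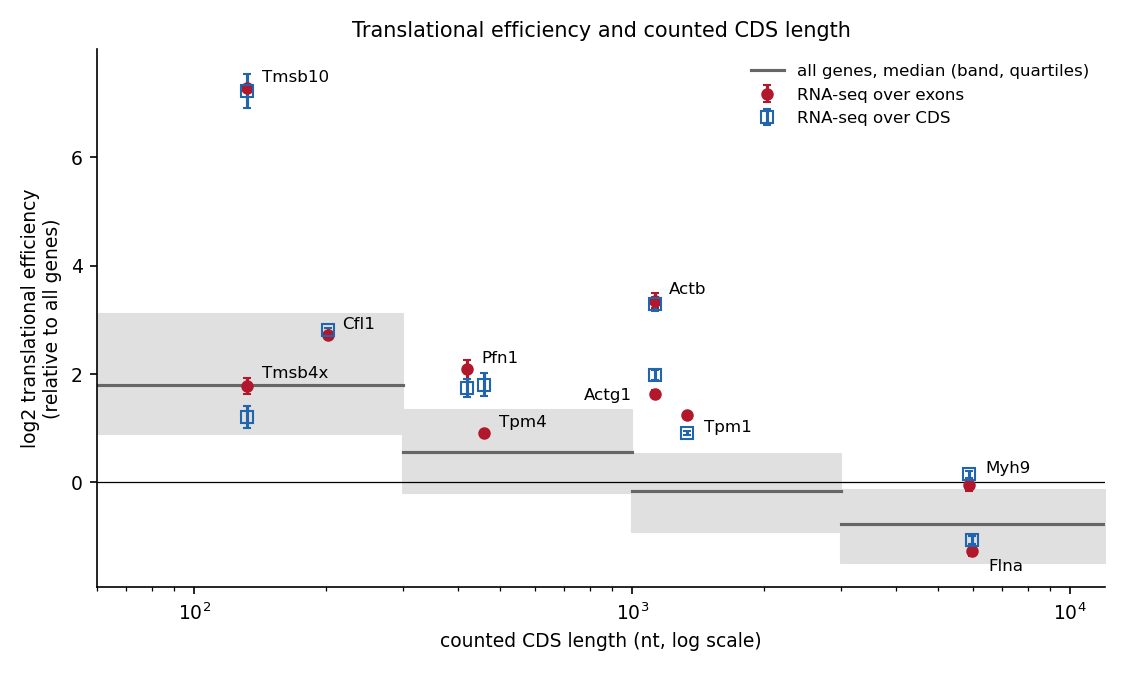
Log2 translational efficiency, relative to the median of all genes, against counted CDS length on a log axis, with RNA-seq over exons (red) or over the CDS (open blue squares) and the SD between the 2 RNA-seq replicates as error bars. Grey lines and bands give the median and quartiles of all genes in 4 length classes, which fell from 1.80 to -0.77 in the median.

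The regions of the mRNA differed between footprints and RNA-seq. In the whole footprint library 93.4% of the counts on CDS and UTRs were on CDS, against 68.7% and 70.2% in RNA-seq replicates 1 and 2. Among the 10 genes the CDS share of footprints was lowest in *Tmsb10* (84.0%), *Tmsb4x* (84.2%) and *Pfn1* (84.8%), and highest in *Flna* (99.7%). The thymosins also have the shortest counted CDS, 132 nt, and *Tmsb10* a counted 5′UTR of 537 nt.

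Footprint density on the 5′UTR was below that on the CDS in all 10 genes, and it was higher on the 5′UTR in 18.3% of the genes that passed. The log2 ratio of 5′UTR to CDS was -1.38 in *Pfn1*, -1.56 in *Myh9* and -1.76 in *Actg1*, and -4.02 in *Tmsb4x* and -4.70 in *Tmsb10*, where the median ratio of all genes was -1.43. The 170 nt of 5′UTR in *Pfn1* held 439 footprints beside 55.9 and 167 RNA-seq counts. The 66 nt of 5′UTR counted in *Actg1* held 322 footprints beside 0.911 and 3.35 RNA-seq counts, so the RNA-seq density there was 1.29 and 3.62 RPKM against 684 and 1075 RPKM on the 79 nt of 5′UTR in *Actb*. The annotated 5′UTR of Actg1-202 is 124 nt long, and which of its positions were counted is not known here.

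Footprints on the 3′UTR were sparse. The log2 ratio of 3′UTR to CDS density was -8.09 in *Cfl1* and -6.97 in *Tpm1* at the low end and -4.85 in *Pfn1* and -4.61 in *Tmsb4x* at the high end, beside a median ratio of -6.00 over all genes. In *Tmsb4x* this was 234 footprints on 410 nt, 10.7% of its counts on CDS and UTRs. RNA-seq density was higher on the 3′UTR than on the CDS in both replicates in 4 of the 10 genes, *Actg1*, *Tmsb10*, *Cfl1* and *Tpm4*, beside 11.5% of all genes. The log2 ratios in replicates 1 and 2 were 1.10 and 0.68 in *Tpm4*, 0.68 and 1.18 in *Tmsb10*, 0.35 and 0.22 in *Actg1* and 0.23 and 0.24 in *Cfl1*. In *Actb* they were -1.17 and -1.40. The same 4 genes were, with *Actb*, those in which at least 45.9% of the CDS windows of 30 nt were shared with other genes, and the part of this sharing in the ratios was not tested.

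**Figure D3:**
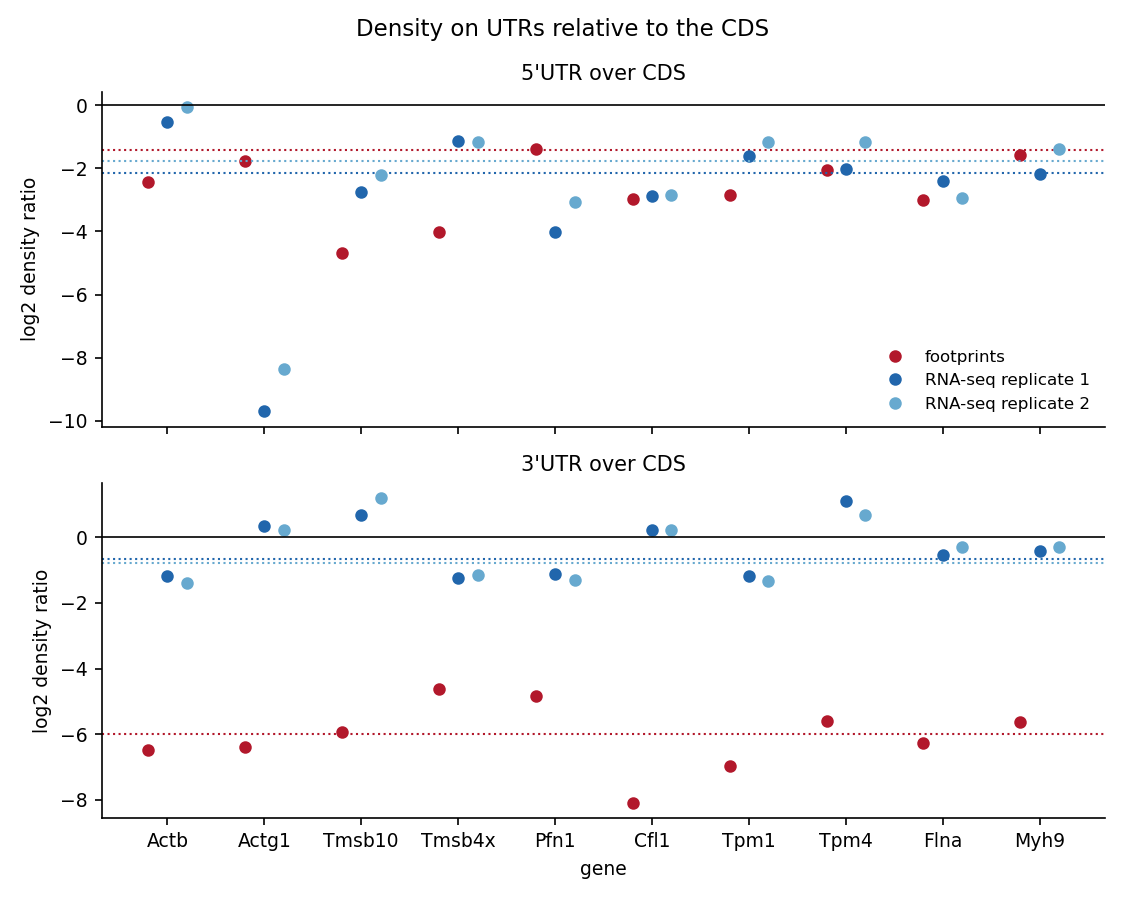
Log2 ratio of density on the 5′UTR (top) and the 3′UTR (bottom) to that on the CDS for footprints (red) and RNA-seq replicates 1 and 2 (blue), with dotted lines at the median ratio of all genes in each library. The *Actg1* RNA-seq points of the top panel rest on 0.911 and 3.35 counts and the *Flna* footprint points on 2.02 and 0.720 counts.

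**Figure D4:**
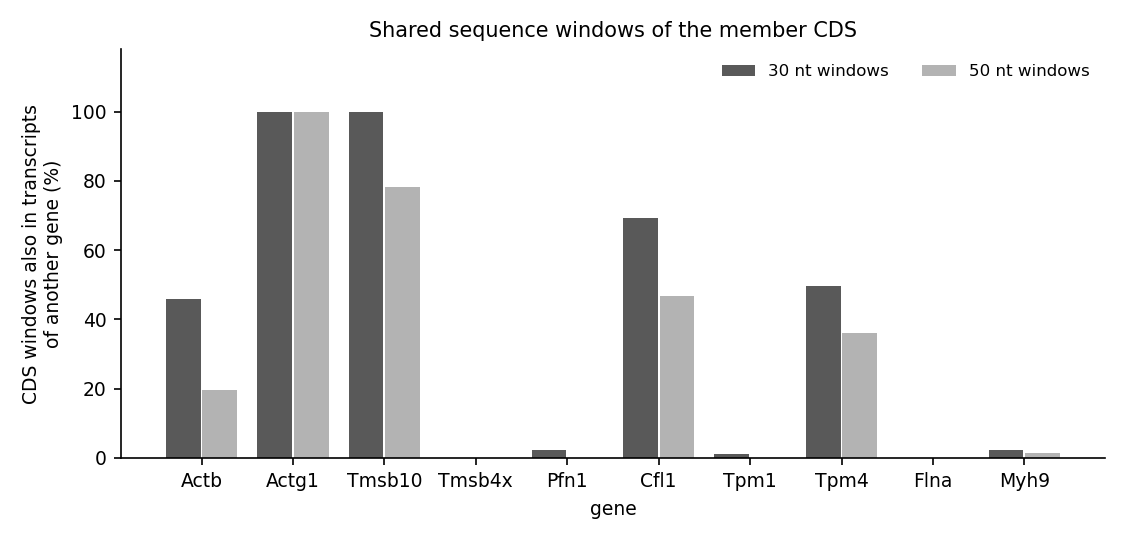
Share of CDS windows of 30 nt (dark) and 50 nt (light) that also occur in annotated transcripts of another gene, in percent from 0. The share was 100% in *Actg1* and *Tmsb10* with 30 nt, and 0% in *Tmsb4x* and *Flna* with either length.

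A 5′ terminal oligopyrimidine start, searched as a transcript that opens with C followed by at least 4 bases that are C or T, was found in 2 of the 48 annotated protein-coding transcripts of the 10 genes, Tmsb4x-203 and Tpm1-210. Among all 58797 protein-coding transcripts 2.14% open in this way. The annotated ends were not measured in these libraries.

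A wider list of 112 names of actin genes, grouped by textbook role, placed the 10 among their partners. The files held rows for 107 of the names, and *Diaph1*, *Diaph2* and *Diaph3* had none under these names. *Mrtfa* and *Mrtfb* were also in the list under their older names *Mkl1* and *Mkl2*, which had the rows, so each is counted once below. Of the 107, 89 passed the filters. Log2 translational efficiency was above 1 in 26 (29.2%) and below -1 in 12 (13.5%), and the median was 0.22, beside 20.7%, 21.1% and 0 over all genes. The median depended on the low-count limit and was -0.073 when 100 counts were required, and with footprints over exons 17 genes were above 1. Without the 10 members 19 of 79 (24.1%) were above 1 and 11 (13.9%) below -1, and the median was 0.16. The median was 2.49 in the 2 actin isoforms that passed, 1.52 in 6 genes of monomer binding, 0.94 in 8 of severing and turnover, 1.78 in 4 tropomyosins and 1.48 in 5 genes of non-muscle myosin II. It was 0.61 in 4 capping genes, 0.30 in 16 genes of the Arp2/3 complex and its activators, 0.16 in 7 linkers of adhesions and membrane, -0.21 in 6 formins and elongators, -0.24 in 15 crosslinkers and bundlers and -0.47 in 3 regulators of SRF. Both actin isoforms that passed are members. Without the members the median was 0.89 in 3 genes of monomer binding, 0.86 in 7 of severing and turnover and 2.33 in 2 tropomyosins. It was 1.66 in 4 genes of non-muscle myosin II and -0.21 in 14 crosslinkers and bundlers. The role medians share the trend with CDS length, and no role was tested against another.

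Among the other list genes with at least 100 counts in each library, the highest values were those of *Arpc4*, a subunit of the Arp2/3 complex (2.61 ± 0.002, SD, n = 2, counting error 0.057), *Tpm2*, *Tpm3*, the myosin light chain gene *Myl6* (2.28 ± 0.12) and the GTPase gene *Cdc42* (2.06 ± 0.10). Among the lowest were those of *Arpc1a* (-2.40 ± 0.07), another Arp2/3 subunit, the cofilin kinase gene *Limk2* (-2.04 ± 0.09), *Lima1* (-1.20 ± 0.03) and *Enah* (-0.81 ± 0.08). With RNA-seq over the CDS *Arpc4* was at 1.51, *Myl6* at 2.22, *Cdc42* at 1.31, *Arpc1a* at -2.24 and *Limk2* at -2.45, while *Lima1* rose above -1 (-0.95) and *Enah* fell below it (-1.52). *Arpc4* had 772 footprints on 353 nt of counted CDS beside 80.2 and 79.5 RPKM of RNA-seq, and *Arpc1a* 125 footprints on 1033 nt beside 137 and 146 RPKM. With RNA-seq on exons these subunits of the same complex thus stood at opposite ends of these genes. Over the CDS *Arpc4* (1.51) was below *Tpm3* (3.63) and *Myl6* (2.22).

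The other list genes with the most footprints on CDS were *Actn1*, which crosslinks filaments in bundles (4260 footprints, 449 RPKM), the capping gene *Capg* (3060 footprints, 851 RPKM), *Dstn*, the severing gene *Gsn* (2861 footprints, 346 RPKM) and *Tagln2* (2567 footprints, 1211 RPKM). Their log2 translational efficiencies were 0.19 ± 0.01 in *Actn1* (counting error 0.024), 0.042 ± 0.11 in *Capg*, -0.012 ± 0.15 in *Gsn* and 1.42 ± 0.001 in *Tagln2* (counting error 0.031). With RNA-seq over the CDS those of *Actn1* and *Tagln2* were 0.17 and 1.40, and *Capg* (-0.48) and *Gsn* (0.097) had the opposite sign. None reached the 4687 footprint RPKM of *Tmsb10*. *Tmsb15a*, a thymosin paralog, had no count in any library.

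**Figure D5:**
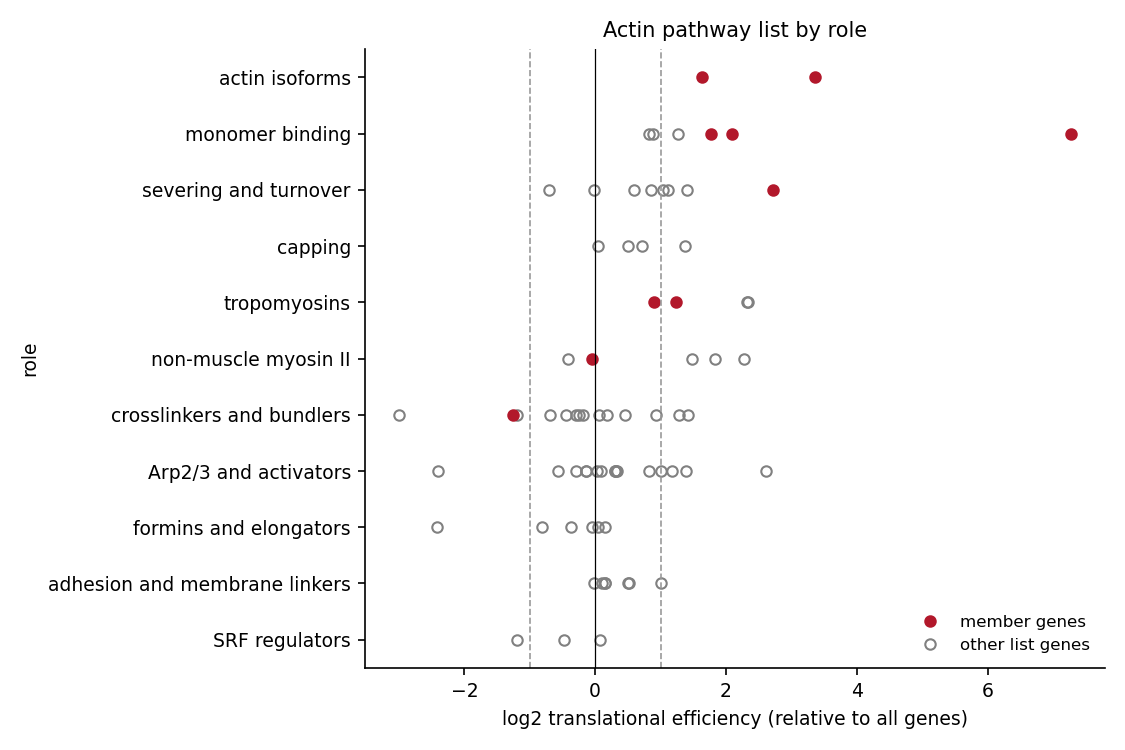
Log2 translational efficiency of 75 of the 89 actin genes that passed, by role, with the 10 members in red and dashed lines at -1 and 1. *Tmsb10*, at 7.28, was the highest of the list.

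By distance over the 3 libraries in log2 RPKM, the 3 genes nearest to *Actb* were *S100a6* (distance 1.03), *Actg1* (1.42) and *Rpl35* (1.42). *Hspb1* (0.19) and *Rpl35* (0.28) were the nearest to *Tmsb4x*, and the nearest to *Myh9* were *Mta2* (0.056), *Cops6* (0.12) and *Drap1* (0.12). *Tmsb10* had *Rps25* (0.63), *Rps29* (1.31) and *Pgam1* (1.35) nearest to it. The counted CDS of *Rps25* and *Pgam1* was 76 nt and that of *Rps29* 168 nt, and their log2 translational efficiencies were 6.52, 5.69 and 6.24. Genes near in level need not share function or control.

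The label of keratinocytes was checked against markers. All 10 keratinocyte markers passed the filters, with summed RNA-seq levels of 15560 and 17653 RPKM, *Krt5* the most abundant at 7965 and 9483 RPKM, and none at 0. *Krt14*, *Trp63*, *Itga6*, *Itgb4*, *Dsp*, *Dsg3*, *Cdh1*, *Perp* and *Col17a1* were the others, and the lowest, *Cdh1*, stood at 50.8 and 51.8 RPKM. The 6 fibroblast markers summed to 9.93 and 15.5 RPKM, led by *Col3a1*, with 10 footprints in all, every one on *Pdgfra*. The 4 endothelial markers summed to 0.505 and 0.652 RPKM and the 5 leukocyte markers to 3.87 and 12.6 RPKM, led by *Lyz2*, with *Cd3e* at 0 in both replicates. The 5 melanocyte markers summed to 5.46 and 5.52 RPKM, nearly all of it *Pmel*.

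Muscle markers matter most here, because muscle has its own actins. The 7 striated muscle markers summed to 4.80 and 5.03 RPKM in RNA-seq, of which *Mylpf* made up 4.39 and 4.68 RPKM, and *Actc1* was at 0 in both replicates. Their footprints summed to 611 RPKM, of which *Acta1* made up 606 RPKM, while *Myh1*, *Myh4*, *Des* and *Ckm* had no footprint. The 5 smooth muscle markers summed to 76.9 and 87.3 RPKM, of which *Smtn* made up 76.7 and 87.1 RPKM, and *Myh11*, *Actg2*, *Cnn1* and *Des* had between 0 and 12.3 RNA-seq counts each. *Smtn* had 286 footprints on its CDS, *Myh11* 46 and *Actg2* 12.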

How the data were processed

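The authors trimmed the reads, removed ribosomal and similar contaminants from the footprints with Bowtie2 2.4.1, aligned to GRCm38 with STAR 2.6.1 (versions from the submitters' processing notes) and used Plastid to count reads per gene and region (exons, coding sequence, each UTR). The deposited expected counts are estimated counts that need not be whole and are not normalized. The RPKM values deposited by the authors use larger library totals (202893242 for footprints, 50733402 and 65593171 for RNA-seq), so RPKM was computed again from counts, counted length and the sum of exon counts.

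Genes were kept with RPKM above 1 in each RNA-seq replicate, a base mean (3 libraries) above 25 with DESeq2 1.42.0 size factors on counts rounded to whole numbers (CDS for footprints, exons for RNA-seq), a counted CDS and a footprint on it. No pseudocount was used. Python 3.11.15, numpy 2.4.6 and pandas 2.3.3 were used, with edgeR 4.0.16 for an alternative scaling. The calculation was tested on simulated counts. Without a second condition the interaction of library type and condition could not be fitted, and no p-value is given. Counts of the 2 RNA-seq libraries differed beyond sampling noise (chi-square over degrees of freedom 7.52, 9862 genes), which compares the libraries only. Their levels are given for each replicate, and translational efficiency uses their mean.

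The members and gene lists were chosen with earlier results of these data known. Named genes are the 10 members, their paralogs in the actin list, the cell type markers, in the rest of the list the 5 highest, 5 lowest and 5 with most CDS footprints among genes with at least 100 counts in each library, and the 3 genes nearest to *Actb*, *Tmsb10*, *Tmsb4x* and *Myh9*. Sequences and gene structures came from GENCODE M21, while the authors name M25 for their long-read and CAGE data and no release for these counts. The alternatives tried were leaving out either RNA-seq replicate, the counted region, a pseudocount, length, filters and scaling. Long-read libraries were not used here. Results on some genes and on 1 role of the actin list are not reported here.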

Additional observations from a re-analysis of the deposited data

Results flagged for a closer look

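Signal was present at positions outside the regions on which the main values rest, above the 3 counts that a count of 0 allows. *Flna* had 582 footprints on exon positions that belong to none of its regions, beside 991 on its counted CDS. *Lrrc58* was chosen after its values were seen, because its transcript holds 288 of the 30 nt windows of the *Actb* CDS. Its 3′UTR of 3903 nt held 1795 footprints, the most of any 3′UTR in the table and 2.75% of all 3′UTR footprints, beside 154 on its CDS. RNA-seq counts on this 3′UTR were 1107 and 1452, which ranked 522 and 454. The part of *Actb* sequence in these footprints was not tested.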

How the results depend on the processing

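No paired analysis was possible because there was only 1 condition and no test. No member above 1 or below -1 in log2 translational efficiency changed sign under the alternatives run, and other named genes of the list were compared gene by gene with RNA-seq over the CDS only. The median of the 10 members was 1.70 in the report. It was 1.77 with RNA-seq over the CDS, 1.28 with footprints over exons, 1.42 without division by length, 1.31 with at least 100 counts in every library, and 1.76 over the 6 members whose counted length is at least 80% of the joint CDS of all their annotated transcripts (56.7% in *Tmsb10*), a setting that gave *Tmsb10*, *Cfl1*, *Tpm4* and *Flna* no value. Over the 5 members with under 10% of CDS windows shared, an alternative chosen after seeing the data, it was 1.23. DESeq2 and edgeR TMM factors without centring moved the median of all genes to 0.97 and 0.91 and that of the members to 2.68 and 2.61, which is 1.70 above all genes in each. The actin list median (0.22) ranged from 0.19 to 0.21 with 1 RNA-seq replicate left out and was 0.37 with RNA-seq over the CDS, 0.26 with footprints over exons, 0.35 without division by length, -0.073 with 100 counts, 0.28 without a filter, 0.30 with the deposited RPKM filter, and 1.20 and 1.13 with the uncentred factors. *Flna*, the 1 member below -1, left 0 there with footprints over exons, without division by length, with either uncentred factor and with the 80% limit. List genes above 1 (26) became 17 with footprints over exons and 56 and 50 with the uncentred DESeq2 and TMM factors, which left 6 and 6 below -1 (12). All genes above 1 and below -1 (2046 and 2077) became 908 and 757 with 100 counts, fewer genes passing, and 4843 and 723 or 4589 and 784 with those factors. With rows that passed as the denominator the member share of CDS footprints was 2.66%. Where no construction shows it, the cause was not tested. The sign of *Myh9* (-0.055) was not stable, at 0.92 and 0.85 with the uncentred factors, 0.15 with RNA-seq over the CDS, 0.46 with footprints over exons, 0.62 without division by length, 0.018 without RNA-seq replicate 2, 0.0017 with the 80% limit and -0.45 with 100 counts. The 7 members above 1 became 5 with footprints over exons and 5 without division by length, where *Tmsb4x* (0.51 and 0.45) and *Tpm1* (0.82 and 0.95) were below 1, 6 with 100 counts, where *Tpm1* was at 0.84, 5 of 6 with the 80% limit and 8 with either uncentred factor. With RNA-seq over the CDS *Tpm1* was at 0.91. Depth limits the UTR ratios of *Flna* (2.02 and 0.720 footprints) and the CDS RNA-seq level of *Tmsb10* (49 and 47.5 counts).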
